A study of Rattus norvegicus with 8 samples.

Results

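The miR-99/100 and miR-125 families were examined in the striatum of rats that had self-administered methamphetamine (METH) or saline. The members were listed by name, and the rule uses no measured value. They are rno-miR-99a-5p, rno-miR-99a-3p, rno-miR-99b-5p, rno-miR-99b-3p, rno-miR-100-5p, rno-miR-100-3p, rno-miR-125a-5p, rno-miR-125a-3p, rno-miR-125b-5p and rno-miR-125b-2-3p. All 10 were among the 752 mature miRNAs of the count table, and all 10 passed the filter on low counts, which kept 507 miRNAs. Small RNA was sequenced from 8 wild-type male Sprague-Dawley rats, 4 that self-administered saline and 4 that self-administered METH through a jugular catheter. Both groups had food training, the same catheter surgery and lever sessions, and rats with stable lever pressing at the end were the ones chosen for sampling, so the groups are a selected set of animals. Each rat gave 1 library, and its age was not given.

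Total counts ranged from 12929302 to 27632443 per library. The 10 members together took 3.62 ± 0.291% of the counts in saline rats (SD, n = 4) against 3.59 ± 0.337% in METH rats (SD, n = 4). The library of METH rat 4 stood apart, since 65.1% of the 507 miRNAs lay outside the range of the other 7 rats in it, against 13.2% to 25.05% in each of the other libraries. Values without it are given below for the results it moved most. The neuronal markers miR-124-3p, miR-128-3p, miR-9a-5p and miR-9a-3p summed to between 256772 and 462238 CPM (counts per 1000000 of the library total, adjusted by the trimmed mean of M-values, TMM) in every library. In bulk tissue, fewer cells of a type and less RNA per cell cannot be told apart.

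The miRNA of a precursor hairpin is cut from its 5′ arm (5p) or its 3′ arm (3p), and usually 1 arm is loaded into Argonaute as the guide while the other is degraded. A guide finds messenger RNAs mainly through its seed, which is bases 2 to 8. The miR-125 family is the vertebrate counterpart of lin-4, the first miRNA described in the worm, where it controls developmental timing together with let-7. The miR-99/100 family is known for targeting the mTOR and insulin-like growth factor pathway, and miR-125b is widely studied in neurons and glia. Vertebrate genomes keep members of both families beside a let-7 gene, so that 1 primary transcript can carry a miR-99/100, a let-7 and a miR-125 hairpin.

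The mature sequences are shown because they set which members share a seed and which could share reads. RefSeq sequences on the assembly GRCr8 were found for 9 of the 10 members, and the seed is in capitals. The sequence of rno-miR-99a-5p is not printed.

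The 5p arms of the miR-99/100 family are:
rno-miR-99b-5p: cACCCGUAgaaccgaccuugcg
rno-miR-100-5p: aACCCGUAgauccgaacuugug

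The 5p arms of the miR-125 family are:
rno-miR-125a-5p: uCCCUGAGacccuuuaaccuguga
rno-miR-125b-5p: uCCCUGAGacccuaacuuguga

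The 3p arms are shown with miR-125b-1-3p, which is not a member but comes from the other precursor of miR-125b-5p:
rno-miR-99a-3p: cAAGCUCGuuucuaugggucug
rno-miR-99b-3p: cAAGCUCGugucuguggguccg
rno-miR-100-3p: cAAGCUUGugucuauaggu
rno-miR-125a-3p: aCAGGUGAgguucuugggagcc
rno-miR-125b-2-3p: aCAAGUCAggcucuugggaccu
rno-miR-125b-1-3p: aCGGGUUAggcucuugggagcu

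The 2 printed 5p arms of the miR-99/100 family shared the seed ACCCGUA and differed at 4 positions counted from the 5′ end, which were C1A, A11U, C16A and C21U with the base of miR-99b-5p first. The 5p arms of the miR-125 family shared the seed CCCUGAG and their first 13 bases, with an edit distance of 3 over the whole length. Fewer of the 3p arms shared a seed, though miR-99a-3p and miR-99b-3p shared their first 9 bases and differed at 3 positions. The seed of miR-99a-3p equalled that of miR-99b-3p, while miR-100-3p and all 3 printed 3p arms of the miR-125 family each had a seed of their own. How the authors treated reads with several alignments is not stated, so the split of reads between such close relatives is uncertain.

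On GRCr8 the genes form 3 clusters of the same order, each with a let-7 gene in the middle. On chromosome 11 they are Mir99a, Mirlet7c1 and Mir125b2, on chromosome 8 Mir100, Mirlet7a-2 and Mir125b1, and on chromosome 1 Mir99b, Mirlet7e and Mir125a. Each span also holds 1 further miRNA gene, Mir3588, Mir3596a and Mir3596c in the same order, whose miRNAs did not pass the filter on low counts and are not described. The reads were aligned to rn6, so no coordinates are given. The mature miR-125b-5p comes from both the chromosome 11 and the chromosome 8 cluster, and its reads cannot be assigned to either. Likewise let-7c-5p and let-7a-5p each have a second gene outside these clusters, whereas let-7e-5p has a single one.

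The 5 guide arms were all abundant, and miR-99a-5p was the highest. It averaged 12007 ± 825 CPM in saline rats (SD, n = 4) against 13689 ± 799 CPM in METH rats (SD, n = 4), which placed it at rank 14 of the 507 miRNAs. In saline rats 1 to 4 it was at 13227, 11749, 11628 and 11423 CPM, and in METH rats 1 to 4 at 13028, 12996, 14161 and 14571 CPM. Saline rat 1 was above METH rats 1 and 2, so the groups overlapped. It was among the steadiest members, since its highest rat was 1.28-fold above its lowest.

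For miR-125b-5p the saline rats were at 8875, 6818, 7862 and 8544 CPM and the METH rats at 8092, 5778, 6485 and 6080 CPM. METH rats 2, 3 and 4 were below every saline rat, and METH rat 1 was within the saline range. The paralog miR-125a-5p was at 6067, 6360, 7422 and 7142 CPM in the saline rats and at 6766, 7416, 8386 and 6449 CPM in the METH rats. These ranges overlapped, with METH rat 3 the highest of the 8.

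The levels of miR-99b-5p were 5328, 4730, 3549 and 4648 CPM in the saline rats and 4473, 5342, 6126 and 9583 CPM in the METH rats. METH rats 2 to 4 were above every saline rat, by little in METH rat 2, and METH rat 1 was below 3 of the 4. The least abundant guide was miR-100-5p, at 3335, 2879, 2841 and 2948 CPM in the saline rats and 2700, 2928, 3430 and 4599 CPM in the METH rats. In TMM-scaled CPM METH rat 1 was the lowest and METH rat 4 the highest of all rats for this member, an order that depends on the scaling.

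The 3p arms were present at far lower levels. The highest, miR-125b-2-3p, was at 94.99, 107, 104 and 79.7 CPM in the saline rats and 89.6, 96.0, 105 and 48.3 CPM in the METH rats, with METH rat 4 the lowest. The range over all rats was 35.4 to 64.1 CPM for miR-99b-3p, 27.4 to 59.9 CPM for miR-100-3p, 6.48 to 17.9 CPM for miR-99a-3p and 8.71 to 16.4 CPM for miR-125a-3p. The lowest count of any member was 108, for miR-99a-3p in METH rat 4, with an exact 95% Poisson interval of 88.6 to 130 that covers counting error only. All 8 counts of miR-99a-3p were even, and it was among 28 such miRNAs of the 467 with more than 200 counts in all. Whether reads of such miRNAs were counted more than once is not stated and was not tested. With its counts halved, a setting chosen after seeing the data, miR-99a-3p was at a mean of 6.83 CPM and below miR-125a-3p, at 13.02 CPM, in 8 of 8 rats.

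Ordered by mean level, the members ran from miR-99a-5p through miR-125b-5p, miR-125a-5p, miR-99b-5p, miR-100-5p, miR-125b-2-3p, miR-99b-3p, miR-100-3p and miR-99a-3p to miR-125a-3p. A read spans a whole mature miRNA, so CPM was not divided by length, and the order of the 9 members with a known length, 19 to 24 bases, was the same per base. In all 8 rats miR-99a-5p was above miR-125b-5p, miR-99b-5p above miR-100-5p, miR-100-5p above miR-125b-2-3p and miR-100-3p above miR-99a-3p. The step from the lowest guide to the highest 3p arm was 35.4-fold. The neighbours miR-125b-5p and miR-125a-5p kept their order in 5 of 8 rats, and miR-99a-3p and miR-125a-3p in 4 of 8, so neither pair differed beyond its spread in the counts as deposited. The other 3 neighbouring pairs kept their order in 7 of 8 rats each.

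**Figure D1:**
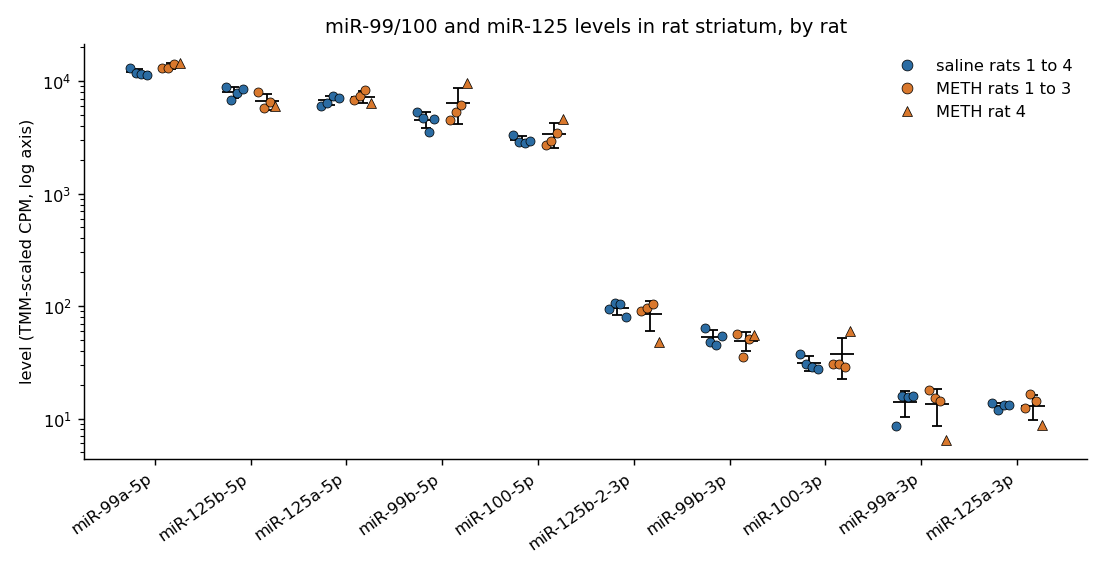
Level of each member in each rat, in TMM-scaled CPM on a log axis, ordered by the mean over 8 rats; black bars are the mean and SD of 4 rats. The 5 guide arms lie between 2700 and 14571 CPM and the 3p arms between 6.48 and 107 CPM, and METH rat 4 (triangle) is the lowest rat for miR-99a-3p, miR-125a-3p and miR-125b-2-3p.

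The arm ratio asks how strongly 1 arm of a precursor outweighs the other. It was taken as log2 of the 5p count over the 3p count within each rat, with 0.5 added to both, which needs no scaling between libraries. Every member precursor favoured its 5p arm. The miR-99a precursor was the most one-sided, with a mean 5p excess of 981-fold, followed by miR-125a at 542-fold. With the even counts of miR-99a-3p halved, the excess of miR-99a was 1958-fold. The ratios of miR-99b, miR-100 and miR-125b-2 were 104-fold, 95.3-fold and 82.0-fold. Over all 205 precursors with both arms tested, the 5p arm was the higher in 56.6%, and the median log2 ratio was 1.08. The miR-99a ratio exceeded those of 92.7% of precursors, and that of miR-125b-2 exceeded 80.0%. Because miR-125b-5p is shared by 2 precursors, its ratio to a single 3p arm overstates the excess in either.

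For miR-99b, log2 arm ratios were 6.38, 6.61, 6.29 and 6.43 in the saline rats and 6.31, 7.24, 6.91 and 7.45 in the METH rats. METH rats 2 to 4 thus lay above the saline range, and METH rat 1 was near its lower end. The difference was 0.55 ± 0.33 (SE) and was not called, with an adjusted p of 0.962 in limma over all 205 precursors and p = 0.114 in the two-sided exact permutation test. For miR-99a the saline rats were at 10.58, 9.55, 9.54 and 9.50 and the METH rats at 9.51, 9.75, 9.96 and 11.13. Saline rat 1 and METH rat 4 stood above the other 6 rats, 1 from each group. The miR-100 ratio lay between 6.26 and 6.89 in all rats, and the miR-125a ratio between 8.78 and 9.53.

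Of the 5 member precursors and the related miR-125b-1, 0 were called at an adjusted p under 0.05 in limma, where 0% of all 205 precursors were called. At an unadjusted p under 0.05 there were 0 of these 6, against 2.93% of all precursors. The groups did not overlap in 0 of the 6, against 2.44% of all. In the exact permutation test, which cannot go below 0.0286 with 4 rats against 4, their p-values ranged from 0.114 to 0.857 before any adjustment. The METH minus saline differences ran from -0.44 for miR-125b-1 to 0.55 for miR-99b, and the median absolute difference over all precursors was 0.28. Without METH rat 4 these were -0.16 for miR-125b-1 and 0.39 for miR-99b, and the differences of the other 4 were 0.020 for miR-125a, -0.053 for miR-99a, 0.044 for miR-100 and -0.27 for miR-125b-2, against 0.14, 0.29, -0.05 and -0.05 with all rats.

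**Figure D2:**
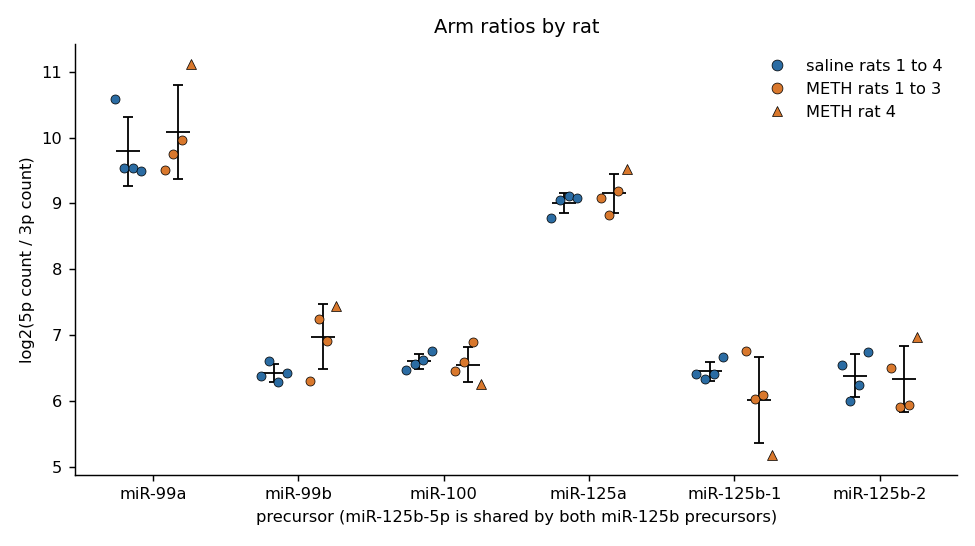
Log2 of the 5p over the 3p count in each rat for the 5 member precursors and miR-125b-1; black bars are the mean and SD of 4 rats. All values are above 5, and METH rat 4 (triangle) has the highest ratio for miR-99a, miR-99b, miR-125a and miR-125b-2 and the lowest for miR-125b-1 and miR-100.

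The main comparison asked which members differed between METH and saline. None of the 10 was called. With the quasi-likelihood test of edgeR and adjustment over all 507 miRNAs, 0 members and 0% of all miRNAs had an adjusted p under 0.05. At an unadjusted p under 0.05 there were 0 members, against 5.52% of all miRNAs. The groups did not overlap for 0 members, against 3.16% of all. DESeq2 called 0 members and 1.58% of the miRNAs to which it gave an adjusted p, and the edgeR exact test called 0 members and 1.18% of all. Members above and below 0 on the log2 fold change scale numbered 5 each, and 47.3% of all miRNAs were above 0. The median log2 fold change was 0.05 over the members and -0.02 over all miRNAs.

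The largest log2 fold change was that of miR-99b-5p, at 0.48 ± 0.27 (SE) in the edgeR test with a 95% interval of -0.11 to 1.08 and an adjusted p of 0.818. The next in size was miR-125b-5p, at -0.28 ± 0.20 (SE) with an interval of -0.72 to 0.16 and an adjusted p of 0.818. The values for miR-99a-5p and miR-100-5p were 0.19 each, with intervals of -0.21 to 0.59 and -0.30 to 0.67, and without METH rat 4 they were 0.16 and 0.011. For miR-125a-5p it was 0.10, with an interval of -0.32 to 0.52, and it lay between 0.0026 and 0.17 when each rat in turn was left out. When library totals replaced the TMM factors, the values were 0.062 for miR-99a-5p, 0.30 for miR-99b-5p, 0.027 for miR-100-5p, -0.0027 for miR-125a-5p and -0.37 for miR-125b-5p, with a median of -0.12 over all miRNAs. The 3p arms lay between -0.18 for miR-125b-2-3p and 0.27 for miR-100-3p, and both of these turned without METH rat 4, to 0.020 and -0.046. So did miR-99a-3p, from -0.05 to 0.19, and miR-125a-3p, from -0.0067 to 0.15. Standard errors of the members ran from 0.18 to 0.35, with a median of 0.34 over all miRNAs. The intervals do not exclude a change of about the size seen in miR-99b-5p in most members, so the absence of a call does not show equal levels.

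The value of miR-99b-5p rested in part on METH rat 4. Without that rat it was 0.22, and without METH rat 1 it was 0.62 (edgeR, adjusted p = 0.460). It stayed above 0 in all 8 fits that each left out 1 rat. The value of miR-125b-5p stayed below 0 in all 8, between -0.39 and -0.18.

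**Figure D3:**
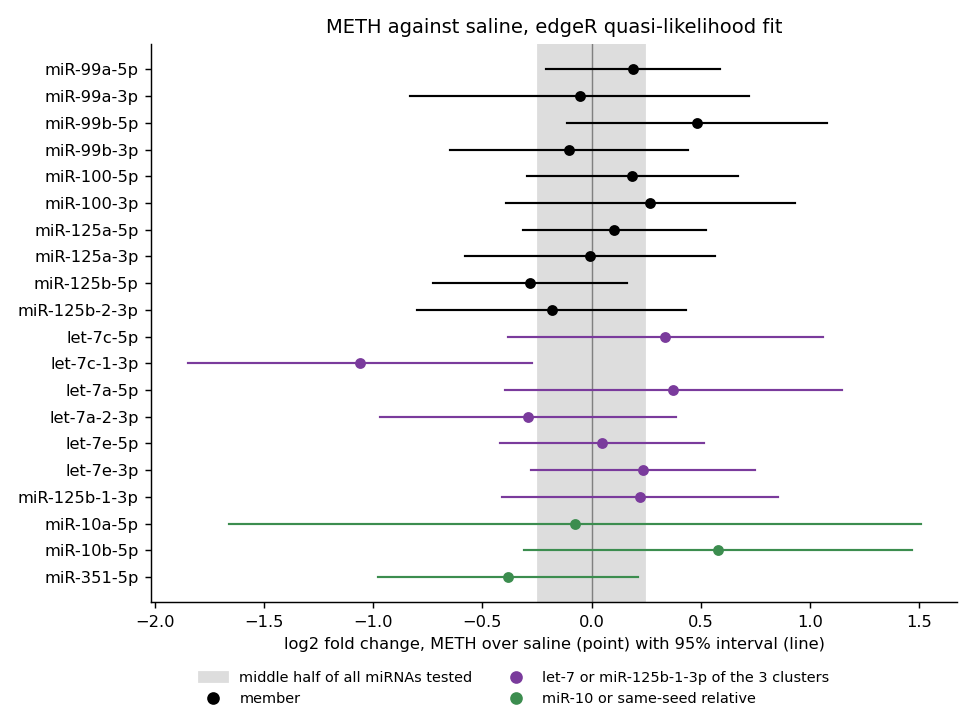
Log2 fold change of METH over saline in the edgeR quasi-likelihood fit, with 95% intervals, for the 10 members, the 7 let-7 and miR-125b-1 products of their clusters and 3 relatives; the grey band spans the quartiles of all 507 miRNAs, from -0.25 to 0.24. Every member interval includes 0, and let-7c-1-3p is the only row whose interval does not.

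Paralogs were next compared with each other inside each library. In the miR-99/100 family, miR-99a-5p gave 61.4 ± 2.09% of the summed 5p counts in saline rats (SD, n = 4) against 59.0 ± 5.90% in METH rats (SD, n = 4). The share of miR-99b-5p was 23.2 ± 2.35% and 26.6 ± 4.76%, and that of miR-100-5p 15.3 ± 0.383% and 14.4 ± 1.16%, in the same order. In METH rat 4 the log2 ratio of miR-99a-5p to the other family members was 0.04, against 0.57 to 0.86 in the other 7 rats. The METH minus saline difference of the log2 ratio to the rest of the family went without METH rat 4 from 0.25 to 0.093 for miR-99b-5p, from -0.14 to 0.021 for miR-99a-5p and from -0.11 to -0.17 for miR-100-5p.

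In the miR-125 family the paralogs were close to equal. The log2 ratio of miR-125a-5p to miR-125b-5p was -0.55, -0.10, -0.08 and -0.26 in the saline rats and -0.26, 0.36, 0.37 and 0.09 in the METH rats. In every saline rat miR-125b-5p was the more abundant, whereas miR-125a-5p was the more abundant in METH rats 2, 3 and 4. METH rat 1 lay inside the saline range, so the groups overlapped. The difference was 0.39 on the log2 scale (two-sided exact permutation test, p = 0.0857), and 0.429 after adjustment over the 10 ratios tested. It was 0.41 without METH rat 4 and lay between 0.29 and 0.52 when each rat in turn was left out. As a share of the summed 5p counts, miR-125a-5p stood at 45.7 ± 3.69% in saline rats (SD, n = 4) against 52.4 ± 5.11% in METH rats (SD, n = 4).

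The let-7 gene of each cluster gives a within-library reference from the same locus. The clearest case is the chromosome 1 cluster, where miR-99b-5p, let-7e-5p and miR-125a-5p each have a single gene. The log2 ratio of miR-99b-5p to let-7e-5p was 0.04, 0.00075, -0.42 and -0.10 in the saline rats and -0.04, 0.10, 0.61 and 0.52 in the METH rats. Their levels were thus nearly equal in saline rats 1 and 2, and miR-99b-5p was ahead in METH rats 2 to 4. The difference was 0.42 (exact permutation test, p = 0.0857, and 0.429 adjusted over the 10 ratios). For miR-125a-5p over let-7e-5p the saline rats lay between 0.23 and 0.65 and the METH rats at 0.55, 0.58, 1.07 and -0.05. The difference of 0.08 rested on single rats, since it was 0.28 without METH rat 4 and -0.097 without METH rat 3.

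In the other clusters let-7 was far ahead of its neighbours. The log2 ratio of miR-99a-5p to let-7c-5p was -1.83 ± 0.09 in saline rats (SD, n = 4) against -1.87 ± 0.58 in METH rats (SD, n = 4). For miR-100-5p over let-7a-5p the values were -3.37 ± 0.15 and -3.46 ± 0.48 in the same order. Without METH rat 4 both differences turned, from -0.04 to 0.24 for miR-99a-5p and from -0.09 to 0.09 for miR-100-5p. Against let-7c-5p and let-7a-5p, miR-125b-5p differed by -0.52 and -0.54 between METH and saline, but by -0.17 and -0.17 without METH rat 4. Over the 10 ratios the exact permutation p ranged from 0.0857 to 0.943, and 0 passed after adjustment. Since let-7a-5p and let-7c-5p also come from other loci, these ratios do not compare products of 1 transcript alone.

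**Figure D4:**
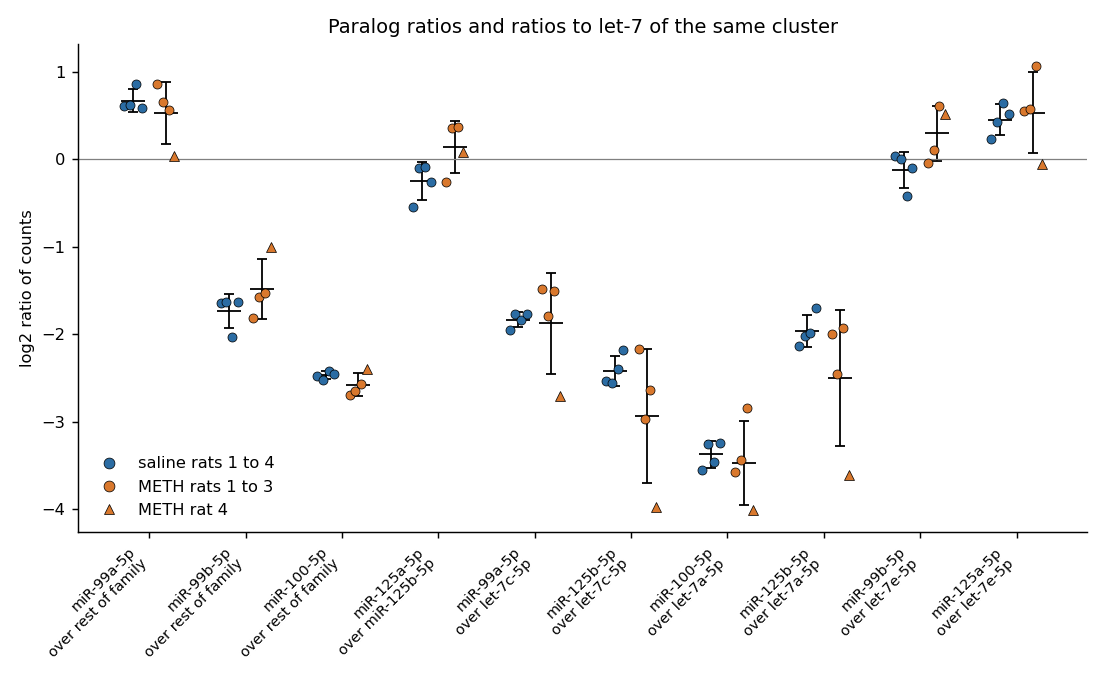
Log2 count ratios in each rat, for paralogs of a family (left) and for members against let-7 of the same cluster (right); black bars are the mean and SD of 4 rats. METH rats 2 to 4 lie above all saline rats for miR-125a-5p over miR-125b-5p and for miR-99b-5p over let-7e-5p, and METH rat 4 (triangle) is the lowest rat for the 4 ratios to let-7a-5p or let-7c-5p.

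METH rat 4 showed how differently the arms and clusters could move in a single library. Relative to the median of the other 7 rats, its 5p arms were at 1.02 for miR-99b-5p, 0.65 for miR-100-5p, 0.16 for miR-99a-5p, -0.15 for miR-125a-5p and -0.37 for miR-125b-5p on the log2 CPM scale. In TMM-scaled CPM the first 3 lay above the range of the other rats, and the miR-125 guides lay within it. Such placements can depend on the TMM factor of 0.766, which raises all CPM of this library. METH rat 2 had the smaller library total, at 19628361 against 21740305 counts. Yet METH rat 2 had more counts of miR-99a-5p (258244 against 242679), miR-125a-5p (147360 against 107410) and miR-125b-5p (114813 against 101262). By library total METH rat 4 was thus below METH rat 2 for these 3 guides, and above it for miR-99b-5p and miR-100-5p. On chromosome 11 its 3p arms were all below the other rats, at -1.26 for miR-99a-3p, -0.99 for miR-125b-2-3p and -1.79 for let-7c-1-3p, the last with 4 counts. On chromosome 8 the 3p arms miR-100-3p and miR-125b-1-3p were above the other rats, at 0.98 and 0.93, whereas let-7a-2-3p was within the range at -0.07. On chromosome 1 the 3p arms went in different directions in TMM-scaled CPM. There let-7e-3p was above the other rats at 0.47, miR-99b-3p within the range at 0.11 and miR-125a-3p below it at -0.61. METH rat 2 had more counts of let-7e-3p, 1600 against 1465, in its smaller library. By library total METH rat 4 was thus not the highest rat for let-7e-3p. The quartiles of all 507 miRNAs were -0.996 and 0.57 in this library.

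The 3p arms of the 2 miR-125b precursors are the only reads here that separate them. The log2 ratio of miR-125b-1-3p to miR-125b-2-3p was 0.14, -0.33, -0.17 and 0.08 in the saline rats, -0.26, -0.12 and -0.14 in METH rats 1 to 3, and 1.80 in METH rat 4. Only METH rat 4, with 2805 and 804 counts, had the arms far from equal.

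In the same library the summed choroid plexus markers miR-204-5p and miR-211-5p stood at 6953 CPM, and at 2686 to 3474 CPM in the other 7 rats. The erythrocyte markers, of which 2 of 4 were tested, stood at 2816 CPM, and at 341 to 648 CPM in the others. The 4 leukocyte and microglia markers summed to 688 CPM, the lowest of all rats, and to 1076 to 2094 CPM in the others. That sum is nearly all miR-150-5p, at a mean of 10.4 log2 CPM over the rats, against 1.39 to 3.76 for the rest of the list. It does not show that the 4 markers moved together. The choroid plexus and erythrocyte sums were likewise mostly miR-204-5p and miR-451-5p. The vascular and oligodendrocyte lists were also highest in METH rat 4, at 13865 and 4492 CPM, where the highest of the other 7 rats were at 12082 and 4052 CPM. The TMM factor of 0.766 raises all CPM of this library, and the order of these marker sums by library total was not examined. The 8 epithelial markers summed to 26.7 to 62.8 CPM in the saline rats and 104 to 2350 CPM in the METH rats, without overlap, and stood at 321 CPM in METH rat 4. None of the markers of these lists was called in the quasi-likelihood test of edgeR. The epithelial list holds miR-183-5p, miR-182, miR-96-5p and miRNAs of the miR-200 family, and its median log2 fold change was 3.94. The paper lists these miRNAs as increased in METH rats, and its qRT-PCR found miR-183-5p and miR-182 increased. The absence of a call for them is therefore not evidence of equal levels. Their part in the values of the members was not tested.

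**Figure D5:**
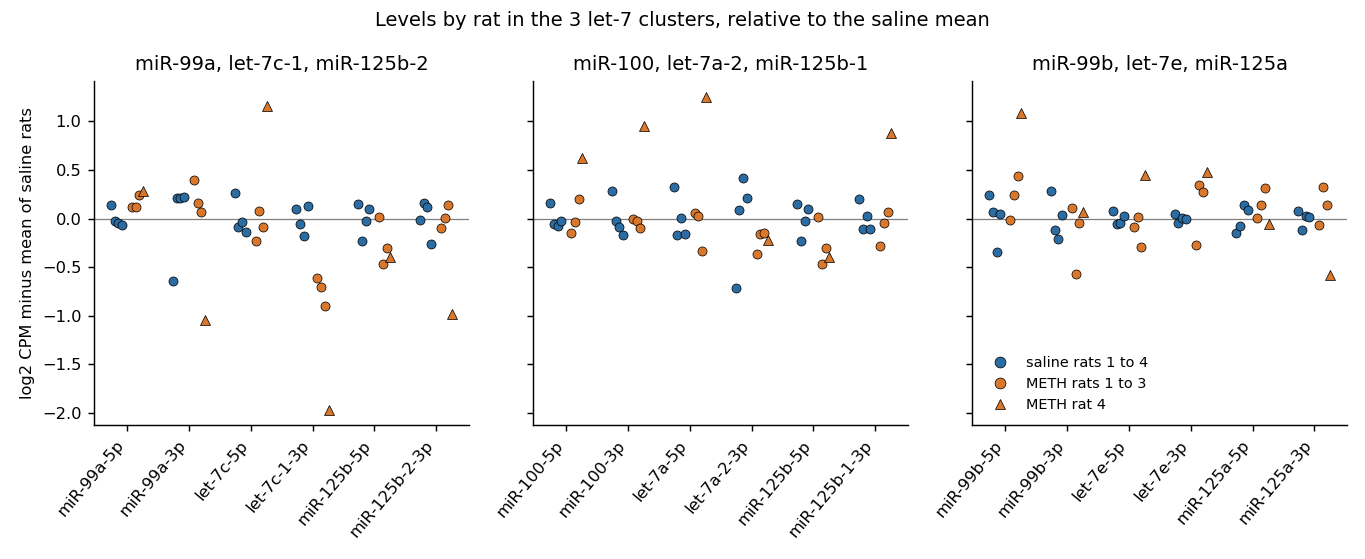
Log2 CPM of the miR-99/100, let-7 and miR-125 products of the 3 clusters minus the mean of the 4 saline rats, in each rat, with precursors in genomic order; miR-125b-5p is drawn in both clusters that make it. METH rat 4 (triangle) is low for the 3p arms of the first cluster and high for miR-100-3p and miR-125b-1-3p of the second, and all 4 METH rats are below all 4 saline rats for let-7c-1-3p.

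The let-7 products of the clusters and miR-125b-1-3p were read as a list of 7, of which 0 were called in the edgeR test. The log2 fold changes were 0.34 for let-7c-5p, 0.38 for let-7a-5p and 0.05 for let-7e-5p, and all 3 were below 0 without METH rat 4, at -0.08, -0.08 and -0.11. For let-7c-1-3p, the 3p arm of the let-7 hairpin next to miR-99a, the edgeR value was -1.06, adjusted p = 0.559. Its counts were 27 to 34 in the saline rats and 4 to 15 in the METH rats, and this difference had been seen before the members were chosen. Its neighbours miR-99a-3p and miR-125b-2-3p overlapped between the groups, with log2 fold changes of -0.05 and -0.18, of which the first was 0.06 with upper quartile factors.

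Relatives by sequence were also examined. The miRNA miR-351-5p has the miR-125 seed, with the sequence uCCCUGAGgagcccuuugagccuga. It averaged 26.8 ± 4.10 CPM in saline rats (SD, n = 4) against 20.6 ± 5.70 CPM in METH rats (SD, n = 4), far below either miR-125 guide, and its log2 fold change in edgeR was -0.38 (adjusted p = 0.818). It was -0.22 without saline rat 1 and -0.58 without METH rat 4, and all 8 counts of miR-351-5p were even. The miR-10 family is related to miR-99/100 but is expressed from Hox gene clusters. The level of miR-10a-5p ranged from 5.01 to 64.0 CPM over the 8 rats, a 12.8-fold span, against 1.28-fold for miR-99a-5p. At 0.547 to 1.61 CPM, miR-10b-5p was near the lower limit of the tested miRNAs.

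For each guide, the 3 miRNAs whose log2 CPM followed it most closely over the 8 rats were found by Pearson correlation among all tested miRNAs outside the families. They were chosen for their likeness, so no test is given, and all values share the scaling of the library. For miR-99a-5p the closest was miR-26a-5p, at r = 0.934 and Spearman's rho = 0.929, with r = 0.914 without the 2 rats farthest from the median. It was followed by miR-7a-1-3p and miR-496-5p, at 0.895 and 0.881. For miR-99b-5p they were miR-122-5p, miR-15b-5p and miR-7a-1-3p, at 0.988, 0.966 and 0.961, where miR-122-5p had a mean of only 1.25 CPM. For miR-100-5p they were miR-23b-5p, miR-412-5p and let-7d-3p, at 0.986, 0.975 and 0.971, but rho was only 0.571 for miR-412-5p. The correlation with miR-23b-5p was 0.921 without METH rats 3 and 4.

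For miR-125a-5p the closest were miR-146a-3p, miR-21-3p and miR-200a-3p, at 0.911, 0.895 and 0.889, and these were 0.797, 0.795 and 0.777 without saline rat 1 and METH rat 3. For miR-125b-5p they were miR-328a-3p, miR-301a-5p and miR-103-2-5p, at 0.802, 0.786 and 0.782, but rho was only 0.595 for miR-301a-5p. Of these 6 miRNAs, miR-200a-3p and miR-328a-3p had a mean above 100 CPM, at 101 and 3663 CPM, and the other 4 were at 0.621 to 1.33 CPM.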

How the data were processed

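Small RNA libraries from the striatum of 8 rats were analysed. The authors trimmed adapters with Cutadapt 1.18, aligned reads to rn6 (STAR 2.7.0e) and obtained the counts with featureCounts from Subread 1.6.4, per the submitters' processing notes and the methods. The deposited table holds the authors' unnormalized counts per mature miRNA. The library kit adds unique molecular identifiers, and no step that merges reads by them is stated, so PCR copies may be counted. The miRNA annotation release is not given in the sources used here.

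Groups were taken from the treatment label. Low counts were removed with filterByExpr of edgeR 4.0.16 at a minimum count of 10 (R 4.3.3). METH and saline were compared with the quasi-likelihood test of edgeR on TMM-scaled counts, with group as the only term and Benjamini-Hochberg adjustment over the 507 miRNAs tested. Standard errors were derived from the fold change and its F statistic, and log2 CPM used a prior count of 2. Arm ratios were compared with limma 3.58.1 with a mean trend over 205 precursors, and single ratios by two-sided exact permutation over the 70 assignments of 8 rats. P-values measure the spread between these rats. Alternatives were other scaling factors and filters, DESeq2 1.42.0, limma voom, the edgeR exact test, a replicate block, other pseudocounts, division of all-even counts, and leaving out each rat. Tests were checked on simulated counts, where 92 of 93 miRNAs changed 4-fold and 48 of 99 changed 2-fold were called, with 5 false calls among 305. These counts were drawn independently, with many miRNAs changed and no library like that of METH rat 4. The rates therefore do not give the power in the deposited data. There, miR-183-5p had a log2 fold change of 4.26 and was not called (edgeR quasi-likelihood test, adjusted p = 0.117). Mature sequences and gene order came from RefSeq on GRCr8, and 685 of 752 rows had a sequence.

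The named miRNAs were the members, the let-7 and miR-125b-1 products of the 3 clusters, tested miRNAs with the seed of a member 5p arm, miR-10a-5p and miR-10b-5p, and the 3 miRNAs most like each 5p arm. Members, lists and tests were chosen with earlier results of these data known.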

Additional observations from a re-analysis of the deposited data

Results flagged for a closer look

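A rat far from the other 3 of its group was found in 10 of 80 groups of 4 examined for the named miRNAs and ratios, where chance gives about 1 in 20. Several of these share counts and are not separate events. No explanation was tested for any of them.

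Saline rat 1 was apart for miR-99a-3p, at 3.12 log2 CPM where the others had 3.97 to 3.99, and hence for the arm ratio of miR-99a, at 10.58 against 9.50 to 9.55. It was also apart for miR-10b-5p at 0.52 log2 CPM, against -0.65 to -0.53, for miR-351-5p at 5.05 log2 CPM, against 4.63 to 4.65, and for the arm ratio of let-7a-2 at 14.998, against 13.50 to 13.66. Saline rat 3 was apart in the balance of the miR-99/100 family. The log2 ratio of miR-99a-5p to the rest was 0.86, against 0.59 to 0.63, and that of miR-99b-5p was -2.03, against -1.64 to -1.63.

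METH rat 4 was apart for miR-100-3p, at 5.91 log2 CPM where the others had 4.86 to 4.95. Its log2 ratio of miR-125b-1-3p to miR-125b-2-3p was 1.80, against -0.26 to -0.12. Its arm ratio of let-7c-1 was 18.43, against 15.49 to 15.97, from 4 counts of the 3p arm.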

How the results depend on the processing

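The number of members called was 0 in every fit, and so were the numbers of precursors called on the arm ratio and of ratios called. Over all miRNAs there were 8 calls with DESeq2 and 6 with the edgeR exact test, and between 0 and 5 when each rat in turn was left out, the 5 without METH rat 1. In that edgeR quasi-likelihood fit 1 member had an unadjusted p under 0.05, as did 54 of 513 miRNAs. The cause was not tested. For the log2 fold changes, 192 values from other settings had the main direction and 7 did not, and with 1 rat left out these numbers were 141 and 19. The median over all miRNAs moved from -0.02 (TMM) to -0.12 (library totals) and 0.08 (upper quartile). With library totals, miR-125a-5p was at -0.0027 and let-7e-5p at -0.098. With upper quartile factors, miR-99a-3p was at 0.063 and miR-125a-3p at 0.080, and the latter was at 0.033 with DESeq2 size factors in edgeR and 0.035 with the DESeq2 test. With even or multiple-of-3 counts divided, let-7e-5p was at -0.0031. With medians in place of means, the ratio of miR-99a-5p to let-7c-5p differed by 0.15. The cause was not tested for these.

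Directions turned in fits that left out 1 rat. Without METH rat 4 the sign turned for let-7a-5p (range -0.082 to 0.55), let-7c-5p (-0.078 to 0.49), let-7e-5p (-0.11 to 0.12), miR-100-3p (-0.046 to 0.43), miR-125b-1-3p (-0.082 to 0.36) and miR-125b-2-3p (-0.31 to 0.020), for the arm ratios of miR-100 (-0.16 to 0.044) and miR-99a (-0.053 to 0.56), and for the ratios of miR-100-5p to let-7a-5p (-0.30 to 0.087), miR-99a-5p to let-7c-5p (-0.17 to 0.24) and miR-99a-5p to its family (-0.25 to 0.021). Without METH rat 3 it turned for miR-125a-5p over let-7e-5p (-0.097 to 0.28), and without saline rat 1 for miR-99b-3p (-0.17 to 0.050). Without any of several rats it turned for miR-125a-3p (-0.18 to 0.15), miR-99a-3p (-0.22 to 0.19), miR-10a-5p (-0.50 to 0.40) and the arm ratio of miR-125b-2 (-0.27 to 0.089).

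With the rat number as a replicate block, 0 miRNAs were called, and miR-99b-5p was at 0.44. The numbers are only an order of labels: deviations from the group means correlated at -0.34, -0.15, -0.15 and -0.36 between rats of the same number. Likeness was recomputed in ways chosen after seeing the data, without METH rat 4 or without the 2 farthest rats. Pearson's r was 0.73 or above in each, and 5 values moved by more than 0.1, to between 0.744 and 0.859, while 25 did not.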
